A study of Saccharomyces cerevisiae with 9 samples.

Results

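The cell wall integrity and wall protein set held 10 genes of *Saccharomyces cerevisiae*, and they were followed over the 9 arrays of 3 xylose-fermenting strains. The members were chosen by gene name for their known role in the wall and in its signalling pathway. Earlier results of these data were known at that time, so the choice was not independent of the data. Each member had 1 probe among the 6256 probes of the array, and all 10 were among the 5947 probes that were tested. The strains were the hybrid Hyb-8 and its parental strains, Sun224T-K and Sun049T-Z, with 3 arrays per strain. In the sample titles Sun224T-K is acid-tolerant and Sun049T-Z is thermotolerant. RNA was taken 3 h after cells were put into xylose medium (50 g/L) at 38°C. The medium held acetic acid (20 mM) and formic acid (15 mM). Thus all 3 strains met heat and both acids, and cells without these stresses were not analysed here.

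Both parental strains were diploids of different industrial origin. Each carried the xylose pathway genes *XYL1* and *XYL2* of *Scheffersomyces stipitis* together with *XKS1* on a plasmid with clonNAT resistance. One copy of *HO* was replaced by the kanMX marker in Sun224T-K and by a zeocin marker in Sun049T-Z. Hyb-8 was 1 isolate from pools of these strains that had been UV-mutagenised, sporulated and mated, so reassorted parental alleles and new mutations cannot be told apart in it. In the labels, *PHO13* is deleted in Hyb-8 and in Sun224T-K, and Sun049T-Z is the control. The log2 level of *PHO13* (YDL236W) relative to the 75th percentile of its array was -1.71, -1.74 and -1.72 in Hyb-8, -1.74, -1.20 and -1.72 in Sun224T-K, and -3.71, -3.74 and -3.90 in Sun049T-Z. The probe was thus brightest in the strains labelled as deleted, which goes against the labels, and strain names and directions used here are those of the labels.

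The yeast wall is a shell of glucan and chitin with an outer layer of mannoproteins. Heat and wall damage are sensed at the plasma membrane by proteins of the Wsc and Mid2 families, which act through the small GTPase Rho1 and protein kinase C on a mitogen-activated protein kinase cascade that ends at Slt2. Slt2 phosphorylates the transcription factor Rlm1, and Rlm1 raises transcription of many genes for wall proteins and wall enzymes. Among the members, *SLT2* and *RLM1* encode these last signalling steps, *FKS1* and *CRH1* encode enzymes that make or link wall polymers, *PIR1*, *PIR3*, *HSP150* and *CIS3* encode proteins with internal repeats (PIR proteins) that are bound covalently to glucan, and *CWP1* and *SED1* encode mannoproteins that reach the wall through a glycosylphosphatidylinositol (GPI) anchor.

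The intensity at the 75th percentile of an array ranged from 1044 to 4830, and the share of spots well above background from 90.2% to 96.5%. The first Sun049T-Z array had the lowest value of both and the widest spread between spots of 1 probe. For the members this spread was 0.114 to 1.44 (SD, log2) on that array, with *SED1* at the top, against at most 0.107 on any other array. All member probes were well above background on every array, and no spot of a member was saturated. Whether the arrays of 1 strain came from separate cultures is not stated, so the p-values measure the spread between these arrays, which may be technical. Of 15 haploid-specific genes that diploid cells should keep low, 10 were tested, and *MFA2*, *MF(ALPHA)1*, *MF(ALPHA)2*, *AGA2* and *HO* did not pass the filter on dim probes. In Hyb-8 over Sun049T-Z, *RME1* and *BAR1* of this list were called higher and *STE18* lower, and the part of such differences in those of the wall genes was not tested. Each level was relative to its own array, and a change in all transcripts, or in the share of cells that make one, cannot be told apart from a change per cell. Whether the strains differ in sequence under a probe, or in copies of a gene, was not tested.

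Against Sun049T-Z, the wall genes were higher in Hyb-8. A gene was called where its fold change reached 2 and its p, adjusted by Benjamini-Hochberg over all probes tested, was under 0.05 in the limma fit. By this rule 7 of the 10 members were higher in Hyb-8 and 0 lower. These were *CIS3*, *PIR3*, *PIR1*, *SLT2*, *SED1*, *CRH1* and *HSP150*, and 9.37% of all probes tested were called higher and 9.1% lower in the same comparison. The other members, *CWP1*, *RLM1* and *FKS1*, also had an adjusted p under 0.05 but a fold below 2, so that all 10 were higher by adjusted p alone, as were 28.7% of all probes. In all 10 members the lowest Hyb-8 array lay above the highest Sun049T-Z array, as was so for 34.1% of all probes. The median log2 fold change was 1.11 over the members and 0.03 over all probes.

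Between the parental strains, Sun224T-K stood above Sun049T-Z. Here 6 of the 10 members were called higher and 0 lower, namely *CIS3*, *PIR3*, *PIR1*, *HSP150*, *FKS1* and *CRH1*, beside 9.42% of all probes called higher and 10.7% lower. All 10 members had an adjusted p under 0.05 and were higher, as were 29.1% of all probes, and in all 10 the arrays of Sun224T-K lay above those of Sun049T-Z, as was so for 33.4% of all probes. The median log2 fold change was 1.13 over the members and 0.0002 over all probes. This comparison and the one above share the Sun049T-Z arrays, so they are not independent of each other.

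**Figure D1:**
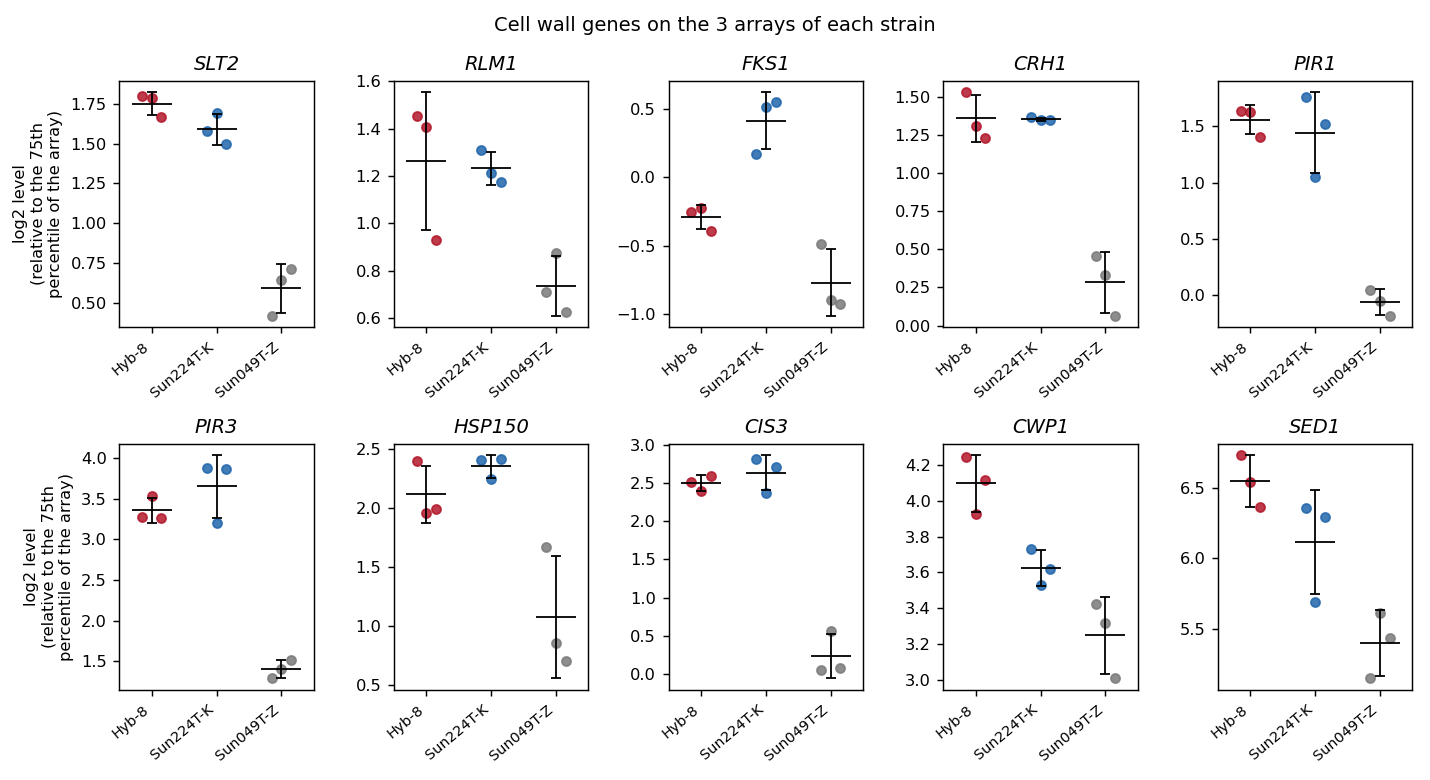
Log2 level of each of the 10 wall genes relative to the 75th percentile of the array (vertical axis, its own range for each gene) in Hyb-8, Sun224T-K and Sun049T-Z, with 1 point per array, the mean as a long line and the SD (n = 3) as the bar. The Sun049T-Z arrays lie below all others in every panel, and *FKS1* is the gene in which Hyb-8 lies between the parental strains with no overlap on either side.

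The kinase Slt2 is the last kinase of the cascade. *SLT2* (YHR030C, chromosome VIII) had log2 levels of 1.80, 1.79 and 1.67 in Hyb-8, 1.58, 1.69 and 1.498 in Sun224T-K, and 0.42, 0.64 and 0.71 in Sun049T-Z. Hyb-8 and Sun224T-K overlapped, and both lay well above Sun049T-Z. *SLT2* rose 2.23-fold in Hyb-8 over Sun049T-Z (log2 1.16 ± 0.11, SE, limma adjusted p = 2.73e-05). In Sun224T-K over Sun049T-Z its log2 fold change was 0.997 ± 0.11 (SE, limma adjusted p = 6.49e-05), which fell just short of the 2-fold threshold. It passed that threshold when any of 4 arrays was left out, with log2 fold changes of 1.02 without Sun049T-Z replicate 2, 1.06 without Sun049T-Z replicate 3, 1.00 without Sun224T-K replicate 1 and 1.04 without Sun224T-K replicate 3.

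Rlm1 is the MADS-box transcription factor that Slt2 activates. *RLM1* (YPL089C, chromosome XVI) had log2 levels of 1.45, 1.41 and 0.93 in Hyb-8, 1.31, 1.21 and 1.18 in Sun224T-K, and 0.71, 0.87 and 0.63 in Sun049T-Z. The third Hyb-8 array was the only one of that strain near the Sun049T-Z values, and no arrays overlapped with Sun049T-Z. Fold changes against Sun049T-Z were 1.44 in Hyb-8 (limma adjusted p = 0.0133) and 1.41 in Sun224T-K (limma adjusted p = 0.0169), so the transcript of the factor did not reach the threshold where that of its kinase did in Hyb-8.

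Fks1 is a catalytic subunit of glucan synthase at the plasma membrane and is regulated by Rho1. *FKS1* (YLR342W, chromosome XII) had log2 levels of -0.25, -0.23 and -0.39 in Hyb-8, 0.17, 0.52 and 0.55 in Sun224T-K, and -0.49, -0.90 and -0.93 in Sun049T-Z. The 3 strains formed separate ranges, with Hyb-8 in the middle. *FKS1* rose 2.28-fold in Sun224T-K over Sun049T-Z (log2 1.19 ± 0.15, SE, limma adjusted p = 0.000148). In Hyb-8 it was 1.40-fold the Sun049T-Z level (limma adjusted p = 0.0215), below the threshold for a call.

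Crh1 is a transglycosylase that joins chitin to glucan. *CRH1* (YGR189C, chromosome VII) had log2 levels of 1.53, 1.31 and 1.23 in Hyb-8, 1.36, 1.35 and 1.34 in Sun224T-K, and 0.45, 0.33 and 0.06 in Sun049T-Z. The Sun224T-K arrays lay within the range of Hyb-8, and every array of both lay above Sun049T-Z. *CRH1* rose 2.10-fold in both comparisons with Sun049T-Z, with limma adjusted p-values of 9.71e-05 for Hyb-8 and 9.5e-05 for Sun224T-K. Both calls lay close to the threshold. The call for Hyb-8 was lost without Hyb-8 replicate 1 (log2 fold change 0.99) and both were lost without Sun049T-Z replicate 3 (0.96 in each comparison).

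The PIR proteins were the role group in which all 4 members were called in both comparisons with Sun049T-Z. *CIS3* (YJL158C, chromosome X), which encodes a mannosylated wall glycoprotein, had log2 levels of 2.51, 2.39 and 2.59 in Hyb-8, 2.82, 2.37 and 2.71 in Sun224T-K, and 0.06, 0.57 and 0.07 in Sun049T-Z. Hyb-8 and Sun224T-K overlapped, and the nearest Sun049T-Z array was more than 1 log2 unit below either. *CIS3* rose 4.80-fold in Hyb-8 (log2 2.26 ± 0.17, SE, limma adjusted p = 5.82e-06) and 5.28-fold in Sun224T-K (log2 2.40 ± 0.17, SE, limma adjusted p = 4.23e-06) over Sun049T-Z, the largest fold change among the members in each comparison.

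*PIR3* (YKL163W) and *PIR1* (YKL164C) are neighbouring genes on chromosome XI and encode glucan-bound wall proteins. *PIR3* had log2 levels of 3.28, 3.53 and 3.26 in Hyb-8, 3.88, 3.20 and 3.87 in Sun224T-K, and 1.29, 1.41 and 1.51 in Sun049T-Z. *PIR1* had log2 levels of 1.64, 1.63 and 1.41 in Hyb-8, 1.75, 1.05 and 1.52 in Sun224T-K, and 0.05, -0.05 and -0.18 in Sun049T-Z. In both genes the second Sun224T-K array was the lowest of that strain, and no array of Hyb-8 or Sun224T-K reached down to Sun049T-Z. *PIR3* rose 3.86-fold in Hyb-8 (limma adjusted p = 2.43e-05) and 4.74-fold in Sun224T-K (limma adjusted p = 1.02e-05) over Sun049T-Z. *PIR1* rose 3.07-fold in Hyb-8 (limma adjusted p = 5.41e-05) and 2.83-fold in Sun224T-K (limma adjusted p = 8e-05).

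*HSP150* (YJL159W, chromosome X), also named *PIR2*, encodes a secreted PIR glycoprotein known to respond to heat shock and oxidative stress. It had log2 levels of 2.39, 1.95 and 1.99 in Hyb-8, 2.40, 2.24 and 2.41 in Sun224T-K, and 1.67, 0.85 and 0.70 in Sun049T-Z. The first Sun049T-Z array stood well above the other two of its strain but still below every array of Hyb-8 and Sun224T-K. *HSP150* rose 2.05-fold in Hyb-8 (log2 1.04 ± 0.24, SE, limma adjusted p = 0.00447) and 2.42-fold in Sun224T-K (log2 1.28 ± 0.24, SE, limma adjusted p = 0.00139) over Sun049T-Z. The Hyb-8 call was lost when any of 3 arrays was left out, with a log2 fold change of 0.90 without Hyb-8 replicate 1, 0.93 without Sun049T-Z replicate 2 and 0.85 without Sun049T-Z replicate 3.

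Of the 2 GPI mannoprotein genes, 1 was called in Hyb-8 over Sun049T-Z and 0 in Sun224T-K. *SED1* (YDR077W, chromosome IV) encodes a major structural protein of the wall of stationary-phase and stressed cells. It had log2 levels of 6.74, 6.54 and 6.36 in Hyb-8, 6.36, 5.69 and 6.29 in Sun224T-K, and 5.14, 5.61 and 5.43 in Sun049T-Z. The second Sun224T-K array lay only slightly above the highest Sun049T-Z array, whereas the Hyb-8 arrays were all clear of it. *SED1* rose 2.22-fold in Hyb-8 over Sun049T-Z (log2 1.15 ± 0.20, SE, limma adjusted p = 0.000947) and was at 1.65-fold in Sun224T-K (limma adjusted p = 0.0119). The spots of *SED1* on Sun049T-Z replicate 1 had the widest spread of any member, and with the median over spots in place of the mean the log2 fold change in Hyb-8 was 0.96, under the threshold.

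*CWP1* (YKL096W, chromosome XI), which encodes a mannoprotein linked to glucan, had log2 levels of 4.25, 3.93 and 4.12 in Hyb-8, 3.73, 3.53 and 3.62 in Sun224T-K, and 3.42, 3.32 and 3.01 in Sun049T-Z. The strains formed separate ranges, with Hyb-8 highest and Sun224T-K close above Sun049T-Z. Over Sun049T-Z its fold change was 1.80 in Hyb-8 (limma adjusted p = 0.000618) and 1.30 in Sun224T-K (limma adjusted p = 0.0386), and neither was called.

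**Figure D2:**
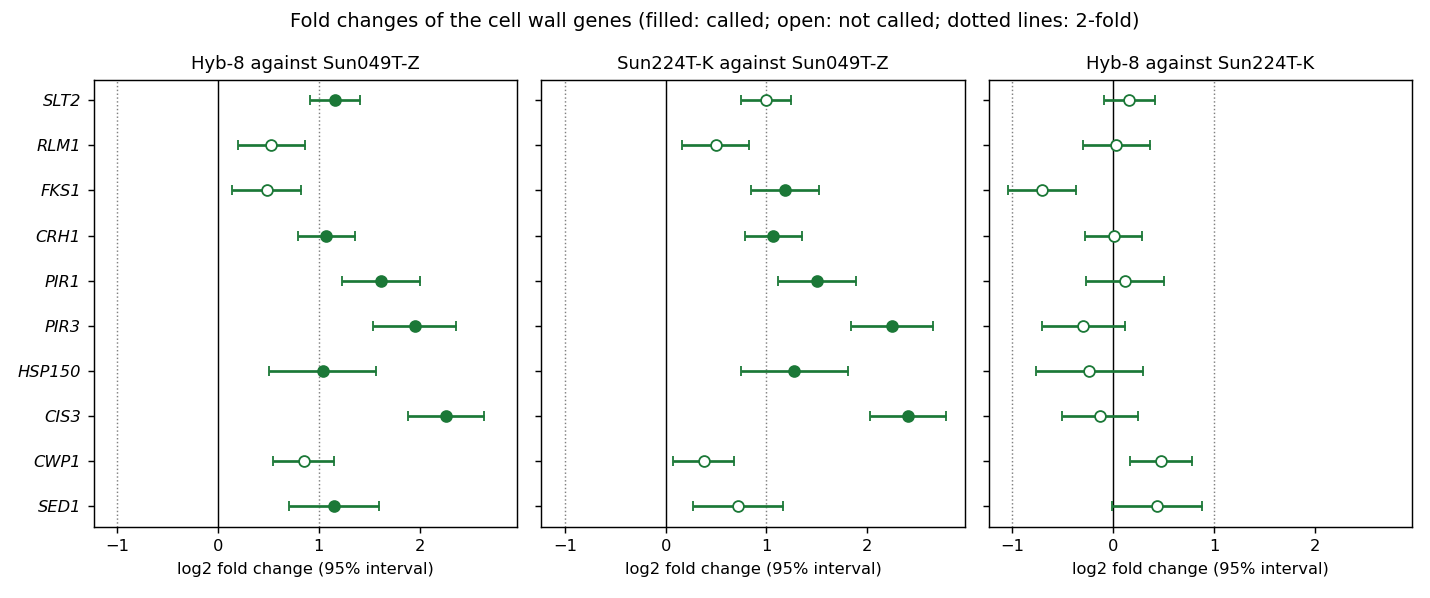
Log2 fold change of each member (horizontal axis) with its 95% interval from the limma fit, for Hyb-8 against Sun049T-Z, Sun224T-K against Sun049T-Z and Hyb-8 against Sun224T-K. Filled points are called, open points are not, and the dotted lines mark a 2-fold change. All 10 intervals exclude 0 against Sun049T-Z in both strains, and those of *FKS1* and *CWP1* exclude it between Hyb-8 and Sun224T-K.

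Against Sun224T-K, the wall genes of Hyb-8 did not reach the threshold for a call. Of the 10 members, limma called 0, where 1.24% of all probes were called in either direction. At an unadjusted p under 0.05, 2 of the 10 members passed, *FKS1* and *CWP1*, beside 22.7% of all probes. The median log2 fold change was 0.02 over the members and 0.01 over all probes. *FKS1* was the only member with an adjusted p under 0.05, at 1.63-fold below Sun224T-K (log2 -0.70, 95% interval -1.04 to -0.37, limma adjusted p = 0.0309), and 2.46% of all probes were lower by that rule. This p depended on single arrays: the limma adjusted p was 0.0683 without Hyb-8 replicate 1, 0.0789 without Hyb-8 replicate 2, 0.124 without Hyb-8 replicate 3, 0.0512 without Sun049T-Z replicate 2, 0.0796 when Sun224T-K replicate 2 was left out and 0.111 when Sun224T-K replicate 3 was.

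The Hyb-8 arrays were all higher than those of Sun224T-K for *CWP1* and *SED1*, 2 of the 10 members, as was so for 15.5% of all probes, and all lower for *FKS1*, as was so for 14.9%. The log2 fold change of *CWP1* was 0.47 (95% interval 0.17 to 0.78, limma adjusted p = 0.0771) and that of *SED1* was 0.43 (-0.01 to 0.88, limma adjusted p = 0.234), so neither passed the test. That of *SED1* was -0.07 with quantile normalization, so its direction turned. The PIR genes had log2 fold changes of 0.12 for *PIR1* (-0.27 to 0.50), -0.29 for *PIR3* (-0.71 to 0.12), -0.24 for *HSP150* (-0.77 to 0.29) and -0.14 for *CIS3* (-0.51 to 0.24), with overlapping arrays in each. These intervals exclude a 2-fold difference in either direction for all 4 genes, but smaller differences could not be resolved with 3 arrays. The same held for *SLT2* (0.16, -0.09 to 0.41), *RLM1* (0.03, -0.30 to 0.36) and *CRH1* (0.005, -0.28 to 0.29).

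On a scale that puts the mean of Sun049T-Z at 0 and that of Sun224T-K at 1, the mean of Hyb-8 lay at 0.87 for *PIR3*, 0.81 for *HSP150*, 0.94 for *CIS3*, 1.08 for *PIR1*, 1.00 for *CRH1* and 0.41 for *FKS1*. These are the 6 members that were called between the parental strains. Those of the PIR genes and *CRH1* were near the Sun224T-K end, and *FKS1* alone was nearer to Sun049T-Z than to Sun224T-K.

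Against Sun049T-Z, the members had the same directions within slides. Slides 2 and 3 of the 4 slides used carried arrays of every strain. Each strain had a single array on these slides, apart from Sun224T-K on slide 2. The arrays are also part of the main fit, so these differences are not separate support. The share of all probes above 0 within a slide was not computed. Within slide 2 the log2 differences of Hyb-8 from Sun049T-Z ran from 0.58 to 1.94 over the members and within slide 3 from 0.30 to 2.52, with 10 of 10 above 0 on each. Those of Sun224T-K from Sun049T-Z ran from 0.31 to 2.13 on slide 2 and from 0.55 to 2.64 on slide 3, again with 10 of 10 above 0. Between Hyb-8 and Sun224T-K, 7 members were above 0 on slide 2 and 3 on slide 3, and *FKS1* was lower in Hyb-8 on both (-0.60 and -0.94). Without Sun049T-Z replicate 1, which was alone on its slide, 7 members were called in Hyb-8 and 6 in Sun224T-K over Sun049T-Z.

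The wider wall machinery was read from 8 lists of 73 other genes. Over Sun049T-Z, Hyb-8 had 21 of the 73 higher and 5 lower by the same rule, where 18.5% of all probes were called in either direction, and Sun224T-K had 22 higher and 7 lower, where 20.1% were. The median log2 fold change was 0.29 in Hyb-8 and 0.43 in Sun224T-K. In Hyb-8 against Sun224T-K, limma called 0 of the 73, where 1.24% of all probes were called in either direction. An adjusted p under 0.05 was found for 6, of which *KRE6*, *UTR2*, *GAS1* and *SMI1* were lower and *CHS1* and *CRR1* higher in Hyb-8. Of these, *GAS1* and *SMI1* are named after their values were seen. By that rule 2.46% of all probes were lower, and the share that was higher is not given here. An unadjusted p under 0.05 was found for 16, and for 22.7% of all probes.

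The steps upstream of Slt2 carry the signal from the membrane to the kinase. Of 12 genes for sensors, Rho1 and its regulators, 1 was called higher in Hyb-8 and 2 in Sun224T-K over Sun049T-Z, with 0 called lower in either. Beside this, 9.37% of all probes were called higher in Hyb-8 and 9.42% in Sun224T-K. *SAC7*, a GTPase-activating protein for Rho1, rose 9.98-fold in Hyb-8 and 9.01-fold in Sun224T-K. Its level in Sun049T-Z was low, at a mean log2 level of -6.14 (-6.57 to -5.31), though well above background on all 3 arrays. Such a low level makes the size of its fold change uncertain. *MID2*, a sensor of the wall, rose 2.06-fold in Sun224T-K and was at 1.96-fold in Hyb-8, under the threshold. The call of *MID2* in Sun224T-K was lost without Sun049T-Z replicate 1 (log2 fold change 0.86), Sun224T-K replicate 1 (0.999) or Sun224T-K replicate 3 (0.97). It was also lost with the median over spots (0.85), the median shift (0.98) or the slide as a fixed block (0.87). Of 11 genes for the other kinases, phosphatases and transcription factors, Hyb-8 had 2 higher and 1 lower, and Sun224T-K had 1 higher and 1 lower. *MKK2*, a kinase of the cascade, is named after its values were seen. It was at 0.549-fold in Hyb-8 (limma adjusted p = 0.000429) and 0.507-fold in Sun224T-K (limma adjusted p = 0.000201), and was not called. It was called lower in both strains scaled to *ACT1* (0.491-fold in Hyb-8, 0.406-fold in Sun224T-K). In Sun224T-K it was also called lower with quantile normalization (0.488-fold), the median shift (0.484-fold) and the submitters' processed values (0.497-fold). The same was so without Sun049T-Z replicate 3 (0.496-fold), Sun224T-K replicate 1 (0.469-fold) or Sun224T-K replicate 3 (0.499-fold). *KDX1*, a pseudokinase related to *SLT2* and a target of Rlm1, rose 3.64-fold in Hyb-8 and 4.76-fold in Sun224T-K. *SWI6*, a partner of the cell cycle factor Swi4, rose 2.15-fold in Hyb-8 and was at 1.96-fold in Sun224T-K, under the threshold. *SDP1*, a phosphatase of Slt2, fell by 1.27 on the log2 scale in Hyb-8 and by 1.70 in Sun224T-K. With the normexp background the fold changes were lower, at 3.82 in Hyb-8 and 3.29 in Sun224T-K for *SAC7*, 2.36 in Hyb-8 and 2.77 in Sun224T-K for *KDX1*, and 1.76 in Hyb-8 for *SWI6*, which was then not called.

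Other known targets of Rlm1 or of wall damage were 6 in number, of which 4 were called higher in Hyb-8 and 2 in Sun224T-K over Sun049T-Z. The shares over all probes called higher were 9.37% in Hyb-8 and 9.42% in Sun224T-K. *PST1*, a GPI protein released by regenerating protoplasts and a common reporter of the pathway, had log2 levels of 4.09, 4.06 and 3.82 in Hyb-8, 4.03, 4.29 and 4.06 in Sun224T-K, and 0.83, 0.70 and 0.68 in Sun049T-Z. It rose 9.53-fold in Hyb-8 and 10.5-fold in Sun224T-K over Sun049T-Z, with a limma adjusted p of 2.09e-07 in Hyb-8 and 2.2e-07 in Sun224T-K, and its fold change exceeded that of any of the 10 members. *YNL058C* rose 3.22-fold in Hyb-8 and 3.02-fold in Sun224T-K. *CRG1* rose 2.21-fold and *NCW2* 2.10-fold in Hyb-8, and in Sun224T-K they were at 1.90-fold and 1.54-fold, under the threshold. In Hyb-8, neither was called with the normexp background (1.85-fold and 1.94-fold), nor *NCW2* without Hyb-8 replicate 1 (1.95-fold). *FBP26* of this list, named after its values were seen, went the other way. It was at 0.773-fold in Hyb-8 (limma adjusted p = 0.0475) and 0.676-fold in Sun224T-K (limma adjusted p = 0.00717) and was not called.

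Of 10 genes for enzymes that reshape glucan and chitin, Hyb-8 had 4 called higher and 1 lower, and Sun224T-K 5 higher and 1 lower. The exoglucanase gene *EXG1* rose 5.02-fold in Hyb-8 and 4.32-fold in Sun224T-K over Sun049T-Z, and *GAS5*, a glucan elongase, rose 4.11-fold in Hyb-8 and 4.64-fold in Sun224T-K. *GAS3*, of the same family as *GAS5*, fell by 1.48 on the log2 scale in Hyb-8 and by 1.26 in Sun224T-K, and it is named here after its values were seen. Of 9 glucan synthesis genes, Hyb-8 had 0 higher and 1 lower, and Sun224T-K had 2 higher (*KRE9* and *KRE6*) and 1 lower. In Hyb-8 *KRE9* was at 1.99-fold (limma adjusted p = 0.000429), just under the threshold. It was called there in some alternatives, such as the median over spots (2.03-fold). *KRE6* was at 1.48-fold in Hyb-8, and its Sun224T-K call was lost with the normexp background or the median shift (1.99-fold in each). In chitin synthesis, 1 of 8 was called higher and 1 lower in Hyb-8, and 1 higher and 2 lower in Sun224T-K. There *CHS7*, which lets chitin synthase III leave the endoplasmic reticulum, fell by 1.88 in Hyb-8 and by 1.86 in Sun224T-K, while *CHS2*, the synthase of the septum, rose 2.28-fold in Hyb-8 and 2.01-fold in Sun224T-K. The Sun224T-K call of *CHS2* was lost without Sun049T-Z replicate 3 (1.94-fold), Sun224T-K replicate 1 (1.90-fold) or Sun224T-K replicate 3 (1.92-fold). It was also lost with the normexp background (1.88-fold), the median shift (1.92-fold), quantile normalization (1.93-fold), the median over spots (1.97-fold) or the submitters' processed values (1.97-fold).

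Of 8 genes of the cell separation and daughter cell programme, 6 were called higher and 0 lower in each comparison with Sun049T-Z. Among all probes, 9.37% were called higher in Hyb-8 and 9.42% in Sun224T-K. The median log2 fold change of the 8 genes was 1.76 in Hyb-8 and 1.80 in Sun224T-K. *SCW11*, a glucanase-like wall protein, rose 5.59-fold in Hyb-8 and 6.05-fold in Sun224T-K (3.29-fold and 3.36-fold with the normexp background). *ASH1*, a repressor kept in daughter cells, rose 5.73-fold in Hyb-8 and 4.99-fold in Sun224T-K, and *EGT2*, which acts in septum breakdown, rose 5.06-fold in Hyb-8 and 5.62-fold in Sun224T-K. Expression of these genes is tied to exit from mitosis. They moved in the same direction as the members, and their part in the differences of the members was not tested.

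**Figure D3:**
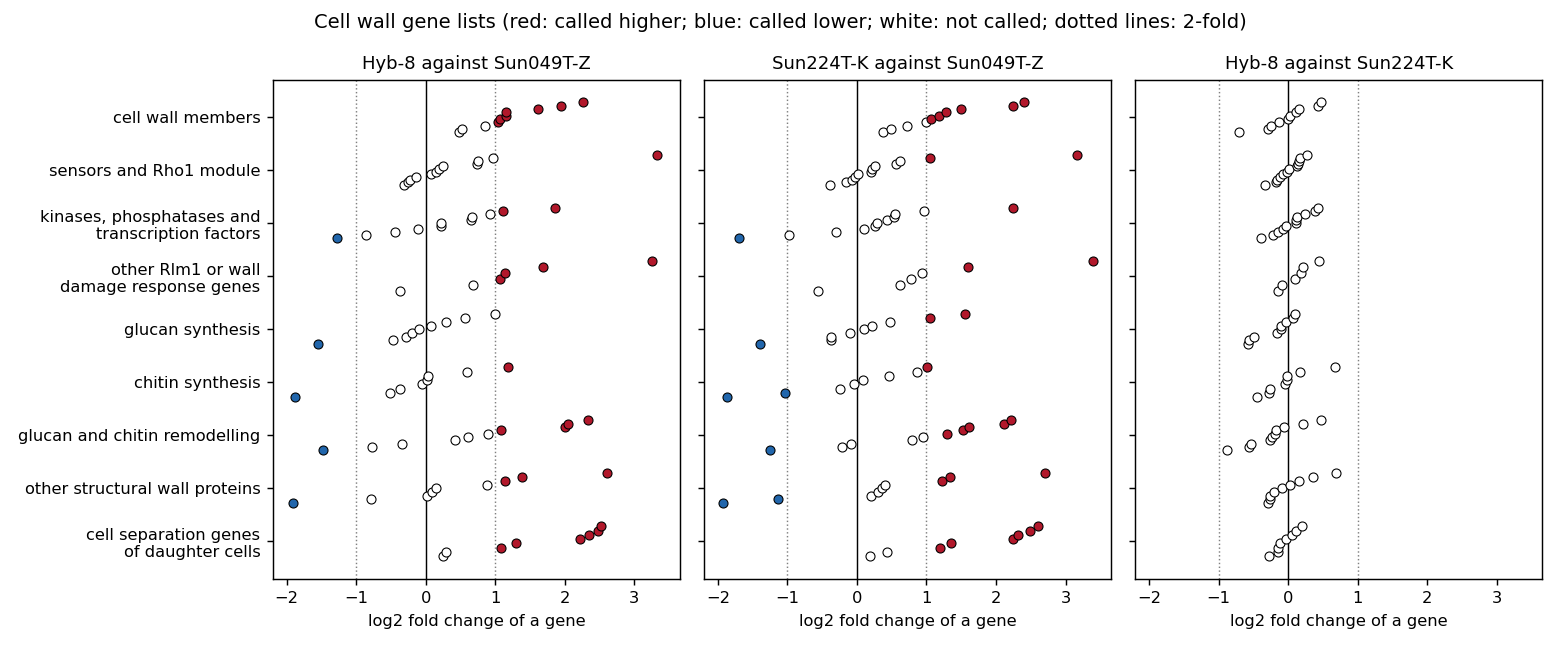
Log2 fold change (horizontal axis) of the 10 members and of the 73 genes in 8 further lists, for Hyb-8 against Sun049T-Z, Sun224T-K against Sun049T-Z and Hyb-8 against Sun224T-K, with 1 point per gene. Red points are called higher, blue points lower and white points are not called. No point is coloured between Hyb-8 and Sun224T-K, and against Sun049T-Z the members, the sensors, the other Rlm1 genes and the cell separation genes have no blue point.

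Members and their closest relatives did not always move together. *SPI1*, which encodes a GPI wall protein similar to Sed1 and known for its response to weak acids, had log2 levels of 2.93, 2.67 and 2.49 in Hyb-8, 2.86, 2.59 and 2.58 in Sun224T-K, and 4.84, 4.58 and 4.40 in Sun049T-Z. Its order was thus opposite to that of *SED1*, with Sun049T-Z clear above both other strains. *SPI1* fell by 1.91 on the log2 scale in Hyb-8 (limma adjusted p = 1.11e-05) and by 1.93 in Sun224T-K (limma adjusted p = 1.02e-05).

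*GSC2*, the alternative glucan synthase subunit that is induced by stress, had log2 levels of 3.06, 3.24 and 2.92 in Hyb-8, 3.17, 2.67 and 3.10 in Sun224T-K, and 3.43, 3.37 and 3.27 in Sun049T-Z. Where *FKS1* was lowest in Sun049T-Z, *GSC2* was highest there, although its log2 fold changes of -0.28 in Hyb-8 (limma adjusted p = 0.132) and -0.38 in Sun224T-K (limma adjusted p = 0.053) did not pass the test. *FKS3*, a relative with a role in spore wall formation, fell by 1.56 in Hyb-8 and by 1.40 in Sun224T-K on the log2 scale, and the Hyb-8 call was lost with the normexp background (log2 fold change -0.84).

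Of the relatives of *CRH1*, *CRR1*, which acts in the spore wall, rose 3.99-fold in Hyb-8 and 2.88-fold in Sun224T-K over Sun049T-Z. *UTR2*, the other vegetative enzyme of the family, had log2 levels of -1.70, -1.88 and -2.02 in Hyb-8, -1.23, -1.30 and -1.39 in Sun224T-K, and -1.13, -0.97 and -1.18 in Sun049T-Z. It was therefore lowest in Hyb-8, and its log2 fold changes there were -0.78 against Sun049T-Z (limma adjusted p = 0.000378) and -0.56 against Sun224T-K (limma adjusted p = 0.026), both under 2-fold.

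**Figure D4:**
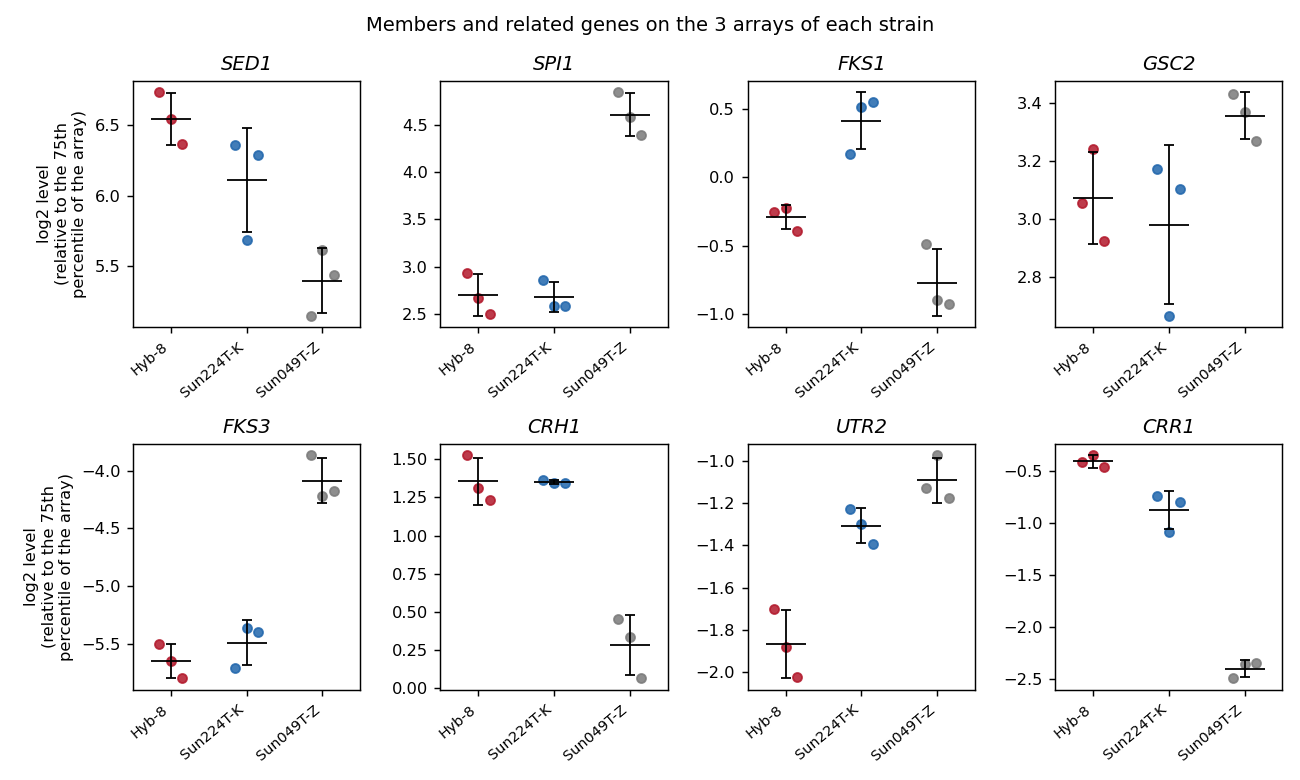
Log2 level relative to the 75th percentile of the array (vertical axis, its own range for each gene) of *SED1*, *FKS1* and *CRH1* beside their relatives *SPI1*, *GSC2*, *FKS3*, *UTR2* and *CRR1* in Hyb-8, Sun224T-K and Sun049T-Z, with 1 point per array, the mean as a long line and the SD (n = 3) as the bar. Sun049T-Z is lowest for *SED1*, *FKS1*, *CRH1* and *CRR1* and highest for *SPI1*, *GSC2*, *FKS3* and *UTR2*.

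Gene order placed some of these genes side by side. *HSP150* lies between *PIR5* and *CIS3*, and *CWP1* lies next to *CWP2*, another GPI mannoprotein gene. *CWP2* rose 2.19-fold in Hyb-8 and 2.52-fold in Sun224T-K over Sun049T-Z, so it was called where its neighbour *CWP1* was not, although the Hyb-8 call was lost without Sun049T-Z replicate 3 (1.95-fold). *PIR5*, a PIR gene linked to sporulation, had log2 fold changes of 0.15 in Hyb-8 (limma adjusted p = 0.394) and 0.40 in Sun224T-K (limma adjusted p = 0.0335) over Sun049T-Z and was not called, unlike the 4 PIR members.

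Of the 9 other structural wall proteins, a list that holds *SPI1*, *CWP2* and *PIR5*, Hyb-8 had 3 called higher and 1 lower over Sun049T-Z, and Sun224T-K had 3 higher and 2 lower. *CCW14*, an inner-layer wall glycoprotein, rose 6.11-fold in Hyb-8 and 6.49-fold in Sun224T-K, although its Sun049T-Z arrays were wide apart at -0.62, 1.98 and 1.67. Without Sun049T-Z replicate 1 its fold changes were 3.48 in Hyb-8 and 3.69 in Sun224T-K, and it was still called in both. *SRL1*, another mannoprotein gene, rose 2.60-fold in Hyb-8 and 2.33-fold in Sun224T-K. The Sun224T-K call of *SRL1* was lost without Sun224T-K replicate 3 (1.90-fold), and with the normexp background it was called in neither strain (1.73-fold in Hyb-8 and 1.44-fold in Sun224T-K). Beside *SPI1*, the gene called lower in Sun224T-K was *YPS1*, which encodes a GPI-anchored aspartic protease and is named after its values were seen. It fell by 1.14 on the log2 scale in Sun224T-K (limma adjusted p = 0.000268), a call that was lost without Sun224T-K replicate 2 (log2 fold change -0.96), and was at -0.79 on that scale in Hyb-8, under the threshold.

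Over the 9 arrays, the probe most like each member had a Pearson r between 0.97 and 1.00, a description over arrays that fall into 3 strains. The genes most like the members were *CLF1* for *SLT2*, *YPL229W* for *RLM1*, *KTI12* for *FKS1*, *AIF1* for *CRH1*, *YBR242W* for *PIR1*, *DFP4* for *PIR3*, *CLN3* for *HSP150*, *ATG45* for *CIS3*, *YIP3* for *CWP1* and *AMS1* for *SED1*. No member was thus most like another member. The closest pair of members was *PIR3* and *CIS3*, with r of 0.98, where *CIS3* ranked 38 among the probes most like *PIR3* and *PIR3* ranked 39 among those most like *CIS3*.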

How the data were processed

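Transcripts were measured on 1-colour Agilent yeast arrays, 3 per strain. The deposited scanner files, made with Agilent Feature Extraction, hold linear spot intensities from which that software had subtracted the background. Its version, 10.1.1.1, was read from the header of the first of these files. A second deposited table holds log2 values from GeneSpring, whose scale and centring are not given in the sources used here. It matched a shift to each array's 75th percentile and centring of each probe on its median over arrays (correlation 0.998 to 1.00). Its column medians were 0 except 0.0817 for Sun049T-Z replicate 1. It served as an alternative.

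In R 4.3.3, control and outlier spots were removed, log2 intensities were set relative to their array's 75th percentile, and the 7 spots of every probe were averaged. Probes with a dim array in every strain (309) were not tested. The strains were compared in 1 limma 3.58.1 model (lmFit, eBayes) of the 9 arrays, with strain as the only term and adjustment over all probes tested. Calls needed a 2-fold change and an adjusted p under 0.05. SE and intervals come from this fit, and the small number of arrays limits their precision. Of the 6256 systematic names, 5756 matched a gene table of assembly R64, used only for names and gene order. Chromosomes were read from the systematic names. Probe sequences were not used here.

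The members and lists were chosen with earlier results of these data known. Named genes were the members, *PHO13*, *XKS1* and *ACT1*, up to 4 genes of each list with the largest change among those called, listed neighbours, and the most like probe. *GSC2* and *UTR2* were added as relatives of members after their values were seen. Alternatives concerned the background (normexp with an offset of 50, from the median spot signal), the normalization, scaling to *ACT1*, marked or saturated spots, the filter on dim probes, the threshold, the arrays in the fit, the moderated test, replicate number or slide as a block, each array left out and, chosen after seeing the data, the median over spots and the same settings for the listed genes.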

Additional observations from a re-analysis of the deposited data

How the results depend on the processing

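In each alternative fitted, all 10 members stayed above 0 against Sun049T-Z in both Hyb-8 and Sun224T-K, with smallest log2 fold changes of 0.32 and 0.05, and at least 8 members in Hyb-8 and 7 in Sun224T-K had an adjusted p under 0.05. Scaling to *ACT1* moved the median of all probes by -0.16 in Hyb-8 and -0.32 in Sun224T-K against Sun049T-Z and by 0.16 in Hyb-8 against Sun224T-K, and the members called over Sun049T-Z were then 3 in Hyb-8 and 3 in Sun224T-K, against 7 and 6. Of the named list genes, it also ended the calls of *CRG1*, *CWP2*, *NCW2* and *SWI6* in Hyb-8 and of *CHS2*, *KRE6*, *MID2* and *SRL1* in Sun224T-K. Of all genes called, those higher then made up 37.0% (50.7% without this scaling) in Hyb-8 over Sun049T-Z, 23.9% (46.9%) in Sun224T-K over Sun049T-Z and 84.3% (68.9%) in Hyb-8 over Sun224T-K. At a fold of 1.5, calls against Sun049T-Z numbered 2318 in Hyb-8 and 2397 in Sun224T-K over all genes (1098 and 1194 at 2-fold) and 41 in Hyb-8 over the wider lists. In Hyb-8 against Sun224T-K they were then 222 over all genes, 2 over the wider lists and 1 among the members (*FKS1*, lower), against 74, 0 and 0. The normexp background gave 48 over all genes. With 1 array left out this count ranged from 47 (without Hyb-8 replicate 3) to 113 (without Sun224T-K replicate 1) and that of the wider lists from 0 to 1, while members called ranged from 5 to 7 in Hyb-8 and from 6 to 7 in Sun224T-K over Sun049T-Z.

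Near-zero differences of Hyb-8 from Sun224T-K changed sign for *CIS3* scaled to *ACT1* (0.0263), *CRH1* with normexp (-0.0181) and quantile normalization (-0.0386) and *RLM1* with quantile normalization (-0.0149). That of *SED1*, at 0.43, turned to -0.0669 with quantile normalization. With 1 array left out they ranged from -0.0810 to 0.0674 for *CRH1*, -0.0808 to 0.27 for *PIR1* and -0.0648 to 0.20 for *RLM1*. Over Sun049T-Z, *SED1* in Hyb-8 was not called with quantile normalization (log2 fold change 0.67), *HSP150* in Hyb-8 not with the median shift (0.98) or quantile normalization (0.99), and *CRH1* not with normexp in Hyb-8 (0.99) or with the median shift in Sun224T-K (0.999). With the slide as a fixed block *CWP1* was called in Hyb-8 (1.02). The cause was not tested. The adjusted p of *FKS1* in Hyb-8 against Sun224T-K was 0.0811 with normexp, 0.065 scaled to *ACT1*, 0.0802 with the replicate block and 0.0709 with the slide as a fixed block. Scaled to *ACT1*, *CWP1* was instead the member under 0.05, higher in Hyb-8 (log2 fold change 0.63, limma adjusted p = 0.0323) and not called. With the replicate number as a block, 7 members were called in Hyb-8 over Sun049T-Z, 6 in Sun224T-K over Sun049T-Z and 0 in Hyb-8 over Sun224T-K. Between strains, residuals of same-numbered arrays correlated between -0.25 and 0.15, over 0.1 in 2 of 9 pairs. Those of differently numbered arrays correlated between -0.37 and 0.36, over 0.1 in 6 of 18 pairs. With 3 arrays per strain, these values cannot settle whether the numbers pair the arrays. Groups of 3 arrays were not tested for outlying arrays, and signal over background was lowest on Sun049T-Z replicate 1.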
